A study of Mus musculus with 2 samples.

Results

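The Hox genes of the mouse were described in single cells of white fat. All gene symbols made of Hox, a gene cluster letter from a to d and a number were taken, which gave 39 genes of the 32246 symbols counted. A level is the number of unique molecular identifiers (UMIs, which tag single captured RNA molecules) of a gene in a class of cells, per 1000000 UMIs of that class (UPM), and a gene was called on at 10 UPM or more in a library. Where values come in pairs, the first is from the WT library and the second from the Paqr4 transgenic library. Intervals in brackets are exact 95% intervals and cover counting error only.

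The study set out to see how PAQR4, a membrane protein of the progestin and adipoQ receptor family, affects the pool of fat progenitors. Cells negative for CD45, a surface protein of blood cells, were sorted by flow cytometry from the collagenase-digested stromal vascular fraction (the cells left once fat cells are removed) of subcutaneous fat. There was 1 droplet library of 3′ RNA ends from WT mice and 1 from Paqr4 transgenic mice. The design text names a pool of 3 mice, without saying whether that is the number per genotype, and the sources used here do not give the promoter of the transgene, the strain or the age. Because there was 1 library a genotype, no test between genotypes was possible, and the genotype cannot be told apart from anything else that differs between the libraries.

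The WT library held 1328 cells with a median of 21612.5 UMIs and the transgenic library 1521 cells with a median of 18711 UMIs, among which 6971 and 8470 UMIs were of Hox genes. No cell barcode was shared between the libraries. The libraries differed in sex as well as genotype: progenitors had 959 and 0.15 UPM of Xist and 0 and 93.7 UPM of the Y-linked gene Uty. The level of Paqr4 itself, the targeted gene, in progenitors was 7.87 (6.82 to 9.03) and 9.49 UPM (8.35 to 10.7), intervals that overlap. An interval of the ratio was not computed for Paqr4, so whether counts of RNA ends separate the genotypes by this gene was not tested. Whether the transgene carries the RNA end that is counted is not stated. Progenitors were 1128 WT and 1360 transgenic cells in 6 clusters, and endothelial cells were 101 and 85, of which 6 and 6 were lymphatic. All 10 progenitor markers were at least 2-fold higher in progenitors than in endothelial cells in both libraries, and 9 of 10 endothelial markers were at least 2-fold higher in endothelial cells. A further 84 cells with red cell and mesothelial genes stayed unnamed and entered neither class.

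Hox genes encode homeodomain transcription factors that give cells of the embryo their place along the head-to-tail axis. They lie in 4 clusters that arose by duplication, so that genes of like number, the paralogue groups, descend from the same ancestor. Low numbers are used from the hindbrain and neck backwards and high numbers only towards the tail, in the same order as the genes lie along the chromosome. Connective tissue cells and vessels keep much of this pattern in the adult, held by Polycomb and trithorax chromatin proteins, and fat depots are known to differ in it.

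In GRCm38, the HoxA cluster (11 genes) covers chr6:52155590-52260880 on the minus strand. The other clusters lie on the plus strand: HoxB (10 genes) covers chr11:96194316-96368256, HoxC (9 genes) chr15:102921103-103036852 and HoxD (9 genes) chr2:74668310-74765142. All 39 genes were found in the annotation. The models of some genes run through their neighbours: Hoxa3 spans Hoxa4, Hoxa5 and Hoxa6, Hoxc5 spans Hoxc6, Hoxc8, Hoxc9 and Hoxc10, and Hoxd3 and Hoxd4 share exon bases (9.26% of those of Hoxd3 and 13.2% of those of Hoxd4). Part of the exon bases of Hoxc5 (5.37%) and of Hoxc10 (8.70%) is shared too. How UMIs were divided between such genes is uncertain.

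Paralogue groups 4 and 8 show how the clusters part between the cell types described below. Hoxb4 was on in progenitors and in endothelial cells, Hoxc4 only in progenitors and Hoxd4 only in endothelial cells, while Hoxb8 and Hoxd8 passed 10 UPM only in endothelial cells. Their 250 bases before the RefSeq start are shown 5′ to 3′ in the direction of the gene. Capitals mark matches, on either strand, to 6 motifs, which may overlap. TATAAA is the TATA box of many regulated promoters. GGGCGG is a GC box, the site of SP factors. The CCAAT box is searched by those letters. A joint site of PBX and HOX proteins was taken as TGATNNAT. The homeodomain core was TAATTA, and a site of MEIS proteins was TGACAGNT.
Hoxb4: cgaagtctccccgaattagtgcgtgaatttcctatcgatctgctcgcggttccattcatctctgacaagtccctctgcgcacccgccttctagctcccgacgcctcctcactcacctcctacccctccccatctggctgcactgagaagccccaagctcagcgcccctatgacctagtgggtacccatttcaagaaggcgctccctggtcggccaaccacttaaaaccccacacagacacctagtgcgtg
Hoxc4: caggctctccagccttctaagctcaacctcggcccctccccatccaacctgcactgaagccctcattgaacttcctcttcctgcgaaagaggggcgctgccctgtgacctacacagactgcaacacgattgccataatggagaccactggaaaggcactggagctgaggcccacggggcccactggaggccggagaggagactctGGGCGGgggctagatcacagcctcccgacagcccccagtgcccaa
Hoxd4: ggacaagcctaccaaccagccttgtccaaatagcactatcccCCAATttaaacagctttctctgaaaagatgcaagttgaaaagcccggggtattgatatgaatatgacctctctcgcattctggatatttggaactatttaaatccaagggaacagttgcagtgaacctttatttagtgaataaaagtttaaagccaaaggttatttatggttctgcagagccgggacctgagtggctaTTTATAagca
Hoxb8: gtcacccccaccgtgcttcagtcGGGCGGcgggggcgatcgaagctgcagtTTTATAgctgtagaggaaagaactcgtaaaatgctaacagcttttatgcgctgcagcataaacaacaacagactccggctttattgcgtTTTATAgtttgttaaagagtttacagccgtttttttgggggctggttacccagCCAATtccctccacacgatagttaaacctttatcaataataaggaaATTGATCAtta
Hoxd8: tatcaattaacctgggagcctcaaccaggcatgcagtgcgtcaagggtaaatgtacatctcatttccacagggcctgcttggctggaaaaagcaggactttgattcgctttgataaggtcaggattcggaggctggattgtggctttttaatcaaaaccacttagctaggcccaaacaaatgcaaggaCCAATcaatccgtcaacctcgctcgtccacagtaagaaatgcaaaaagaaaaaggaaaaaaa
The sequences are from RefSeq on GRCm38.p6, at chr11:96318017-96318266 for Hoxb4, chr15:103034145-103034394 for Hoxc4, chr2:74721728-74721977 for Hoxd4, chr11:96281655-96281904 for Hoxb8 and chr2:74704365-74704614 for Hoxd8. RefSeq promoters were matched for 22 of the 39 genes. None of the 6 motifs matched before Hoxb4, and 1 GC box did before Hoxc4. Hoxd4 had a TATA box and a CCAAT box, Hoxb8 had 2 TATA boxes, a GC box, a CCAAT box and a PBX-HOX site, and Hoxd8 had a CCAAT box. Among 32817 promoters of the same length, 12.4% held the TATA box, 32.7% the GC box, 33.8% the CCAAT box, 7.69% the PBX-HOX site, 4.85% the homeodomain core and 4.10% the MEIS-type site. A match is a run of letters and not a measured binding site.

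Progenitors of white fat had Hox genes of the middle of the series on, from the A, B and C clusters. In WT progenitors 11 of 39 Hox genes were on and in transgenic ones 13, against 26.2% and 26.6% of all symbols. Over both libraries these were Hoxa3, Hoxa5, Hoxa7, Hoxb2, Hoxb3, Hoxb4, Hoxb5, Hoxb6, Hoxb7, Hoxc4, Hoxc5, Hoxc6 and Hoxc8. Hoxb7 and Hoxc5 were the 2 that passed 10 UPM in the transgenic library alone, with 8.26 and 8.77 UPM in the WT library. Next below them, in both libraries under the threshold, were Hoxd8 (4.68 and 6.83 UPM), Hoxc9 (4.21 and 4.90 UPM) and Hoxb8 (4.21 and 4.4 UPM).

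All Hox genes together made up 246 (240.0 to 252) and 297 UPM (291 to 304) of progenitors. HoxB gave the most, 107 and 124 UPM. HoxC followed with 75.2 and 98.0 UPM and HoxA with 56.8 and 63.6 UPM, while HoxD gave 7.44 and 11.6 UPM. The order of the 4 clusters was the same in both libraries and their intervals did not overlap within a library.

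**Figure D1:**
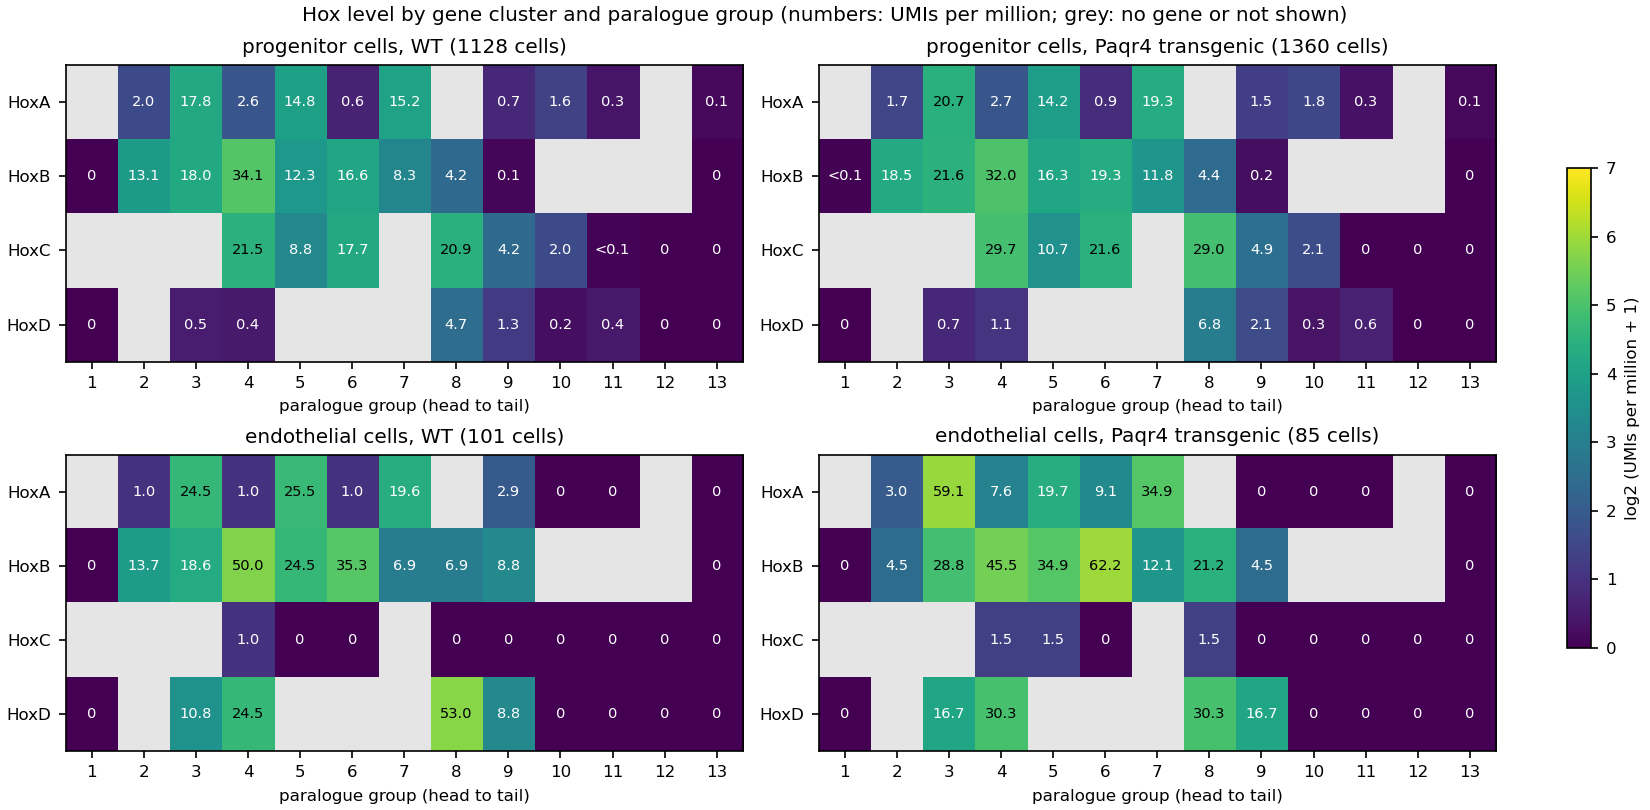
Level of each Hox gene in UPM (numbers; colour on a log2 scale of UPM plus 1) by gene cluster (rows) and paralogue group (columns; grey where there is no gene or none is shown), for progenitors and endothelial cells of the WT and Paqr4 transgenic libraries. No gene past group 8 reaches 10 UPM in progenitors, and the HoxC row is at or near 0 in endothelial cells. In the HoxD row, Hoxd3, Hoxd4, Hoxd8 and Hoxd9 are higher in endothelial cells than in progenitors.

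Among the HoxB genes, Hoxb4, which acts in neck patterning and in blood stem cells, had the highest level of all 39 in progenitors, 34.1 (31.9 to 36.4) and 32.0 UPM (29.8 to 34.2), with a UMI in 43.0% and 38.8% of cells. Its neighbours were lower: Hoxb3 stood at 18 and 21.6 UPM, Hoxb6 at 16.6 and 19.3 UPM, Hoxb2 at 13.1 and 18.5 UPM and Hoxb5 at 12.3 and 16.3 UPM. The group 1 gene Hoxb1, a hindbrain gene, had 0 and 1 UMI, and Hoxb13, a gene of the tail end, had 0 in both.

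Among the HoxC genes, which have no members of groups 1 to 3, Hoxc4 stood at 21.5 and 29.7 UPM and Hoxc8, a gene of the chest and flank, at 20.9 and 29.0 UPM. Hoxc6, a gene of the upper chest, stood at 17.7 and 21.6 UPM and Hoxc5 at 8.77 and 10.7 UPM. The HoxA genes on were Hoxa3, Hoxa5, which acts in lung and neck, and Hoxa7. They stood at 17.8 and 20.7 UPM, 14.8 and 14.2 UPM, and 15.2 and 19.3 UPM. Between them, Hoxa4 stood at 2.65 and 2.69 UPM and Hoxa6 at 0.62 and 0.87 UPM, so the level did not follow gene order within HoxA. The model of Hoxa3 spans both low genes and also Hoxa5, which was on, though these genes share no exon bases with it. The counts of all of them carry the uncertainty named above.

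Single progenitors carried a UMI of 4 different Hox genes at the median in both libraries, with a range from 0 to 12. A UMI of any Hox gene was found in 95.7% (94.3 to 96.8) and 97.1% (96.1 to 98.0) of progenitors. With each cell thinned to 5000 UMIs, which left out 25 and 47 shallower cells, the shares were 66.4% and 74.3%. HoxC was found together with HoxA or HoxB in the same cell in 58.5% and 66.9% of progenitors (15.1% and 21.5% when thinned). No gene that was on depended on a few cells: the 5 cells with most UMIs of a gene held 3.43% to 8% of its UMIs over the 13 genes and both libraries.

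Free RNA was read from 3 sources. In 25 WT cells of cluster 9, which express pancreatic exocrine enzyme genes, there was 1 Hox UMI, or 3.23 UPM, and in 9 WT epithelial cells there were 3 Hox UMIs, or 13.5 UPM. Barcodes of at most 50 UMIs, which hold mostly free RNA, had 144 and 201 UPM of Hox genes, of which HoxB held 44.9% and 39.0% and HoxC 26.0% and 33.8%, against 43.3% and 41.7% and 30.6% and 33.0% in progenitors. From haemoglobin UMIs, free RNA was estimated at 0.23% and 0.20% of the UMIs of progenitors and at 3.03% and 3.33% of those of endothelial cells.

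In endothelial cells 11 and 13 Hox genes were on, beside 27.0% and 27.2% of all symbols. These are the same counts as in progenitors. HoxA and HoxB genes were on in both classes, HoxC genes in progenitors and HoxD genes in endothelial cells. Over both libraries 14 genes were on: Hoxa3, Hoxa5, Hoxa7, all of Hoxb2 to Hoxb8, and Hoxd3, Hoxd4, Hoxd8 and Hoxd9. Of these, 9 were also on in progenitors, all from HoxA and HoxB, and 21 of the 39 genes were on in neither class. The sum of all Hox genes in endothelial cells was 338 (304 to 376) and 447 UPM (398 to 501), 1.38-fold and 1.50-fold that of progenitors.

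HoxC was nearly absent from the counts of endothelial cells. Its summed level there was 0.98 and 4.55 UPM, from 1 and 3 UMIs, against 75.2 and 98.0 UPM in progenitors and 37.3 and 67.7 UPM in barcodes of at most 50 UMIs. The progenitor level was higher by 76.6-fold (13.7 to 3029) and 21.5-fold (7.36 to 105). In cells, a HoxC UMI was found in 65.6% and 73.0% of progenitors and in 0.99% and 2.35% of endothelial cells. Thinned to 5000 UMIs, the shares were 28.1% and 36.4% against 1.22% and 1.45%, so the gap was there at equal depth. Hoxc4, Hoxc5, Hoxc6 and Hoxc8 were the 4 Hox genes at least 2-fold higher in progenitors in both libraries, a call that 13.2% of 10485 genes received. Hoxc4 was higher by 22-fold and 19.6-fold, with 1 endothelial UMI in each library. Hoxc6, with 0 endothelial UMIs in both, was 6.02-fold and 4.74-fold above a floor of 3 UMIs in the class (lower limits at log2 2.29 and 1.94). In WT, Hoxc8 had 0 endothelial UMIs and stood 7.11-fold above that floor (lower limit at log2 2.53). In the transgenic cells it was 19.1-fold higher, against 1 UMI. Hoxc5, with 0 endothelial UMIs in WT, stood 2.98-fold above the floor there (lower limit at log2 1.26). In the transgenic cells it was 7.08-fold higher, against 1 UMI, with a log2 interval of 0.33 to 8.13 that reaches below 2-fold.

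HoxD had the opposite distribution. Its sum in endothelial cells was 97.1 (78.9 to 118) and 94.0 UPM (72.1 to 121), 13.1-fold (10.1 to 16.7) and 8.12-fold (6.08 to 10.7) above progenitors. A HoxD UMI was found in 52.5% and 42.4% of endothelial cells and in 11.4% and 15.4% of progenitors, and in 37.8% and 30.4% against 3.35% and 5.64% when thinned. Endothelial cells had 53.0 (39.8 to 69.1) and 30.3 UPM (18.5 to 46.8) of Hoxd8, against 4.68 and 6.83 UPM in progenitors. Hoxd4 stood at 24.5 and 30.3 UPM against 0.43 and 1.06 UPM, the widest endothelial excess of the 18 genes compared (57.2-fold and 28.5-fold). Hoxd3, known to drive the invasive state of endothelial cells in new vessel growth, stood at 10.8 and 16.7 UPM against 0.47 and 0.72 UPM. Hoxd9 stood at 8.83 and 16.7 UPM against 1.29 and 2.09 UPM. Of its 9 and 11 endothelial UMIs, 6 and 5 came from lymphatic cells, which numbered 6 in each library.

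With Hoxb6 (35.3 and 62.2 UPM against 16.6 and 19.3 UPM), these 4 genes made 5 at least 2-fold higher in endothelial cells in both libraries. They are counted among the Hox genes at 10 UPM or more in a class and library, and 17.6% of all genes were so called. None of the other HoxA and HoxB genes at that level passed 2-fold in endothelial cells in both libraries. Hoxb9 was below that level and not compared. It was 113-fold and 24.0-fold higher in endothelial cells, from 9 and 3 UMIs there against 2 and 5 in progenitors. Hoxb4 was 1.47-fold and 1.42-fold higher in endothelial cells, and Hoxb3 1.04-fold and 1.34-fold. Hoxb8, at 6.87 and 21.2 UPM, and Hoxa3, at 24.5 and 59.1 UPM, were past 2-fold in the transgenic library alone. Hoxb5 lay just short of the call, 1.99-fold and 2.14-fold higher in endothelial cells. For Hoxb2 the libraries went opposite ways: it was 1.05-fold higher in endothelial cells of the WT library and 4.06-fold higher in progenitors of the other, there against 3 endothelial UMIs.

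**Figure D2:**
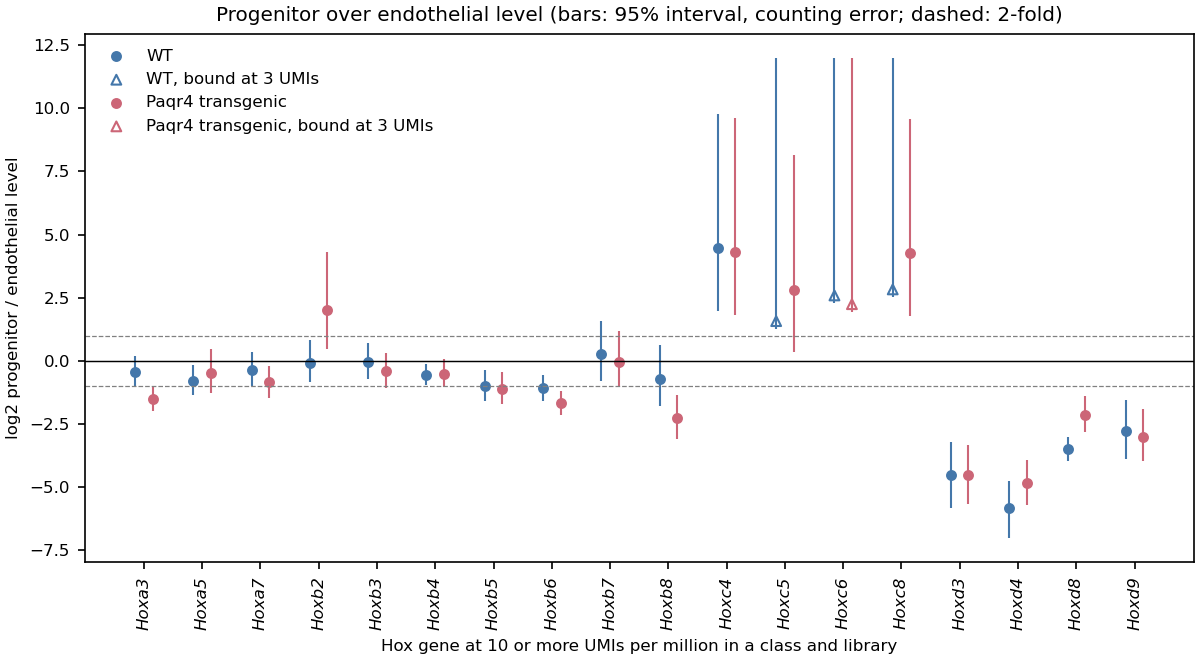
Log2 ratio of the progenitor to the endothelial level for the 18 Hox genes at 10 UPM or more in a class and library, with 95% counting intervals (upper ends without a limit are drawn to 12). Open triangles, marked as bounds at 3 UMIs, are ratios to a floor of 3 UMIs where the endothelial count was 0. The 4 HoxC genes lie above 2-fold and the 4 HoxD genes below in both libraries, with HoxA and HoxB genes near or below 0 apart from Hoxb2 in the transgenic library.

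Each endothelial sub-cluster had HoxD and little or no HoxC. In lymphatic cells HoxC had 0 UMIs in both libraries (upper limits 57.9 and 65.6 UPM) and HoxD had 14 and 12 UMIs, or 220 and 213 UPM. Blood endothelial cells split at a finer resolution into a cluster led by Cldn5, Cd36 and Dach1 (36 WT and 66 transgenic cells) and a cluster led by Plvap, Emcn and Lama3 (59 and 13 cells). HoxD stood at 64.5 and 81.5 UPM in the first and 107 and 90.1 UPM in the second, and HoxC had 4 UMIs over both. The few pericytes or smooth muscle cells (11 and 6) differed from the endothelium: they had 12 and 7 HoxC UMIs, 109 and 139 UPM, and 0 and 1 HoxD UMIs, with HoxB at 362 and 397 UPM.

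The genes that were on ended at group 8 in progenitors. There, groups 4 to 8 held 74.3% and 73.9% of Hox UMIs, groups 1 to 3 held 21.2% and 21.4%, and groups 9 to 13 held 4.43% and 4.66%. Along HoxC the level went from 20.9 and 29.0 UPM at Hoxc8 to 4.21 and 4.90 UPM at Hoxc9, 1.99 and 2.13 UPM at Hoxc10 and 1 and 0 UMIs at Hoxc11. Along HoxA it went from 15.2 and 19.3 UPM at Hoxa7 to 0.74 and 1.48 UPM at Hoxa9. Along HoxB it went from 4.21 and 4.4 UPM at Hoxb8 to 2 and 5 UMIs at Hoxb9. Group 12 had 0 UMIs in progenitors of both libraries, where 3 UMIs would be 0.12 and 0.11 UPM.

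In endothelial cells the summed level of group 9 was higher than in progenitors, mostly through Hoxb9 and Hoxd9, while Hoxc9 had 0 endothelial UMIs against 108 and 129 in progenitors. Hoxb9 stood at 8.83 UPM (4.04 to 16.8) and 4.55 UPM (0.94 to 13.3), and group 9 as a whole at 20.6 UPM (12.8 to 31.5) and 21.2 UPM (11.6 to 35.6), against 6.31 and 8.65 UPM in progenitors. Groups 10 to 13 had 0 endothelial UMIs in both libraries. A floor of 3 UMIs would be 2.94 and 4.55 UPM there. This floor is above the progenitor levels of groups 11 to 13 in both libraries and of group 10 in the transgenic library. For these the depth could not show a difference.

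As background, in the mouse skeleton group 4 genes act in the neck, groups 5 to 9 in the chest, group 10 in the lumbar region, group 11 in the sacrum and group 13 in the tail. The genes on here, groups 2 to 8 in progenitors and 2 to 9 in endothelial cells, are those used from the neck to the chest, with those of the lumbar region and the tail at a few UPM or less. Group 9 was on in endothelial cells through Hoxd9 alone, in the transgenic library alone, where 5 of its 11 UMIs came from 6 lymphatic cells. Body position itself was not measured.

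A minority of progenitors carried genes of groups 10 to 13, most often of group 10. At least 1 UMI of groups 10 to 13 occurred in 48 of the 1128 WT progenitors (4.26%, 3.15 to 5.60) and 70 of the 1360 from transgenic mice (5.15%, 4.03 to 6.46). More than 1 gene of these groups was found in 14 of the 48 and 23 of the 70 cells. Group 10 gave 96 of their 118 UMIs in WT and 112 of 137 in the transgenic library, and group 13 gave 3 and 3. These cells were set apart after their values were seen, so what follows is a description, read on the genes of groups 1 to 9 that did not choose them. Their median depth was 25212.5 and 19516 UMIs, against 22514 and 19326.5 UMIs in the rest.

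A group 9 UMI was found in 43.8% (29.5 to 58.8) and 62.9% (50.5 to 74.1) of these cells, against 7.41% and 7.36% of the other progenitors. Hoxd9 stood at 16.2 and 21.8 UPM in them and at 0.53 and 0.96 UPM in the rest, 30.5-fold (14.4 to 66.7) and 22.7-fold (12.9 to 40.4) higher. Hoxa9 was 27.3-fold (9.99 to 78.1) and 50.9-fold (24.1 to 117) higher, and Hoxc9 3.20-fold (1.72 to 5.55) and 5.32-fold (3.41 to 8.08). The genes that chose the cells include neighbours of these, such as Hoxa10, which 4 of 13 and 10 of 26 cells with Hoxa9 carried, and the part of reads shared between neighbours was not tested. Hoxc10, on another chromosome than Hoxa9, was found in 6 of those 13 and 9 of those 26 cells. Of 22 WT cells with Hoxc10, 6 also had Hoxd9, which was found in 20 of all 1128. In the transgenic library 14 of 40 cells with Hoxc10 also had Hoxd9, found in 40 of 1360.

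Some genes of lower number were scarcer in the same cells. Hoxb2 stood at 0.30-fold (0.10 to 0.71) and 0.52-fold (0.28 to 0.88) its level in the other progenitors, while Hoxa5 was at 0.37-fold (0.15 to 0.77) and 0.63-fold (0.33 to 1.09) and Hoxb5 at 0.65-fold (0.31 to 1.21) and 0.33-fold (0.14 to 0.66). Hoxc4 and Hoxc6 were near their level elsewhere, at 1.14-fold and 0.87-fold and at 1.06-fold and 1.26-fold. Hoxd8 was 2.41-fold (1.24 to 4.30) and 2.07-fold (1.22 to 3.34) higher. Wt1, a transcription factor of the coelomic lining, was also higher, at 685 and 573 UPM against 489 and 369 UPM in the rest.

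These cells lay in all 6 progenitor clusters of both libraries, by count most in cluster 2 (18 of 341 WT and 17 of 280 transgenic cells). Cluster 1 had 9 of 286 and 16 of 402, and cluster 3 had 4 of 169 and 12 of 299. Cluster 4 had 11 of 203 and 10 of 165, cluster 5 had 4 of 86 and 14 of 107, and cluster 7 had 2 of 43 and 1 of 107. The intervals treat each UMI as separate, yet UMIs of 1 cell share that cell: of the 51 WT UMIs of Hoxc10, 28 came from 5 cells and 11 from a single cell. Free RNA had 1.50 and 1.52 UPM of Hoxc10, close to its 1.99 and 2.13 UPM in progenitors as a class, while those 11 UMIs sat in a single cell.

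**Figure D3:**
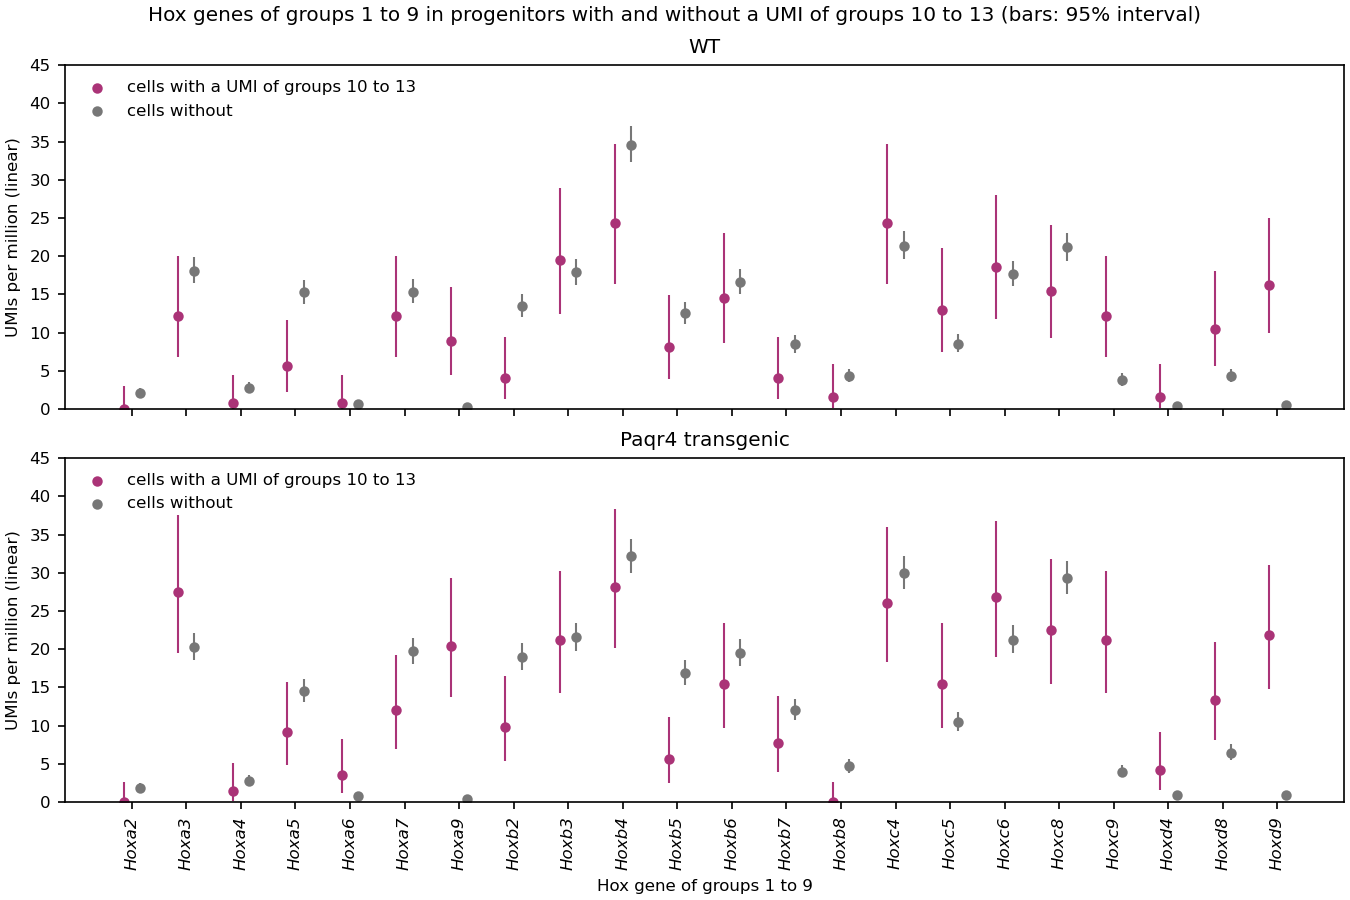
Levels in UPM (linear axis, 95% counting intervals) of Hox genes of groups 1 to 9 with at least 20 UMIs in a library, in progenitors with a UMI of groups 10 to 13 (48 WT and 70 transgenic cells) and in those without. Hoxa9, Hoxc9 and Hoxd9 are higher in cells with such a UMI in both libraries, and Hoxb2 is lower.

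Progenitor clusters differed in their summed Hox level. Cluster 2, which had all 11 Dpp4-like markers (cells known as early, interstitial progenitors), had a summed Hox level of 218 (209 to 228) and 247 UPM (235 to 260.2). Cluster 1, Icam1-like (committed preadipocytes) with 8 of 12 markers, had 289 and 328 UPM, and cluster 5, F3-like (cells known to regulate fat cell formation) with 6 of 10, had 241 and 335 UPM. Of the clusters without a state name, cluster 3 (leading genes Igha, Igkc, Jchain, Tenm4 and Cxcl14) had 304 and 342 UPM and cluster 7 (Nkain3, Itgbl1, Tgfbi and Wnt4) 320.3 and 340.1 UPM. Cluster 4 (Adamts4, Tfpi2, Il6, Procr and Thbd) was lowest in both libraries, at 195 (183 to 207) and 215 UPM (200.0 to 230.3).

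Of the 13 genes on in progenitors, 8 were at least 1.5-fold apart between a cluster and the other progenitors, the same way in both libraries, against 37.3% of all 8748 genes read. The share of all genes called in the same way is given for each cluster. In cluster 4, Hoxa3, Hoxa5, Hoxb2 and Hoxb6 were lower, a call that 14.2% of genes received (4% were called higher), and 12 of 13 genes were below the other progenitors in both libraries. Its Hoxb2 level was 7.01 and 9.56 UPM, against 14.6 and 19.9 UPM in the others, a log2 ratio of -1.06 in both. Its Hoxa3 level was 9.47 and 11.2 UPM, against 20 and 22.2 UPM. None of the HoxC genes passed 1.5-fold in both libraries in any of the 6 clusters, though Hoxc6 came close in cluster 7 (log2 ratio 0.91 and 0.58).

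Cluster 3 was the reverse for 3 of these genes: Hoxa3 (log2 ratio 1.01 and 0.83), Hoxa5 (0.77 and 0.78) and Hoxb6 (0.71 and 0.70) were higher, against 7.64% of genes (6.05% were lower). In cluster 7, Hoxa3 (0.96 and 1.03) and Hoxa7 (0.63 and 0.87, the first with an interval that holds no difference) were higher, against 5.02% of genes (7.13% were lower). The Icam1-like cluster 1 had Hoxb4 at 46.7 and 43.3 UPM, against 30.2 and 27.0 UPM in the others, and Hoxb5 at 17.4 and 21.9 UPM, against 10.7 and 13.9 UPM. Of all genes, 2.41% were called higher there and 3.56% lower. The Dpp4-like cluster 2 had Hoxb3 lower (13.3 and 13.1 UPM, against 20.4 and 24.2 UPM), as were 8.29% of genes (4.23% were higher), and Hoxb4 short of 1.5-fold in WT alone (log2 ratio -0.57 and -0.86). In the F3-like cluster 5, Hoxb5 (log2 ratio -0.94 and -0.96) and Hoxa7 (-0.65 and -0.84, the first with an interval that holds no difference) were lower, against 5.25% of genes (5.29% were higher).

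**Figure D4:**
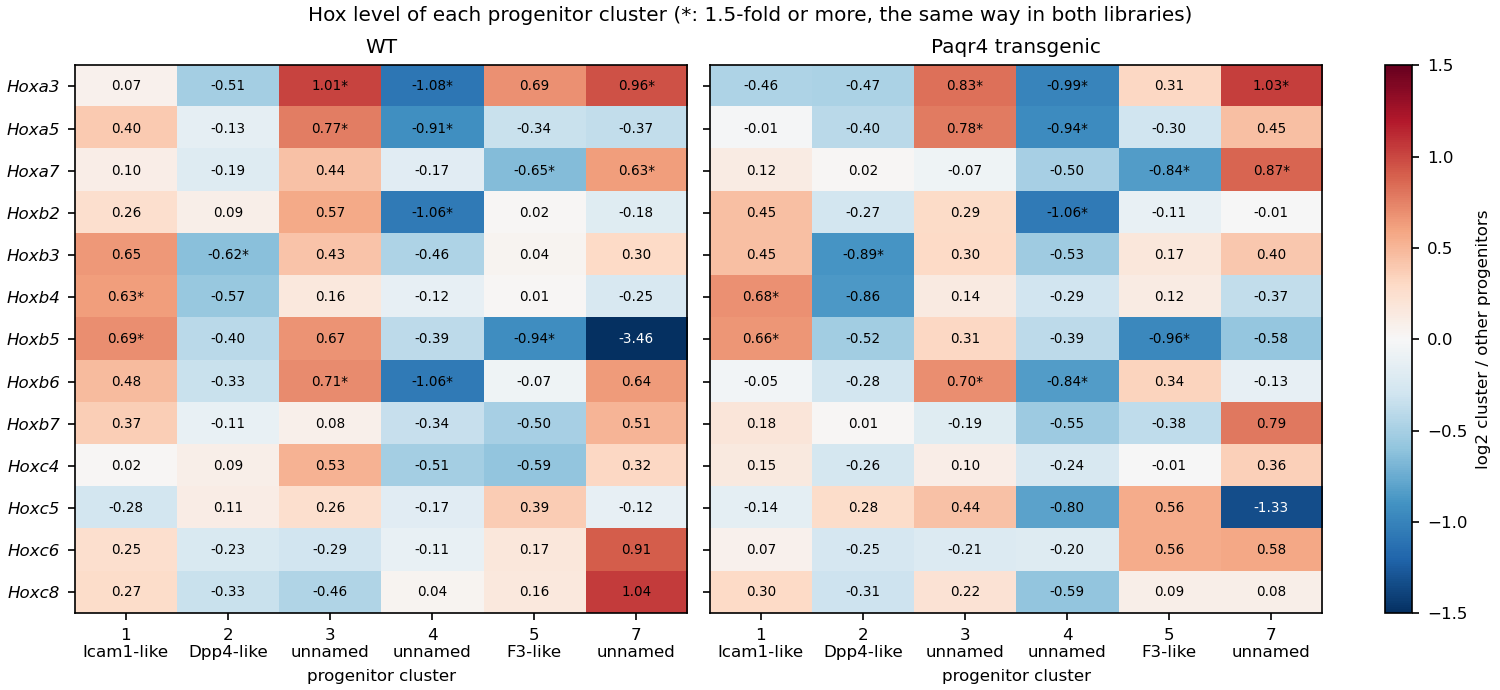
Log2 ratio of each progenitor cluster to the other progenitors for the 13 Hox genes on, in the WT and transgenic libraries; stars mark ratios of 1.5-fold or more the same way in both. Cluster 4 is low for nearly every gene, cluster 3 is high for Hoxa3, Hoxa5 and Hoxb6, and the HoxC rows carry no star.

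Between the libraries, Hox levels were mostly a little higher in transgenic progenitors, and none of the 13 genes on passed 1.5-fold. Of the 13 genes on, 11 were higher and 2 lower in the transgenic library, against 5851 higher and 2897 lower of 8748 genes read. Past 1.5-fold either way were 0 of the 13, against 4.47% of all genes (2.72% higher and 1.75% lower). The median log2 ratio was 0.29, against 0.09 over all genes read, with a range from -0.09 to 0.52. Intervals lay above no difference for 11 of the 13 and below it for 0, which was so for 40.9% and 15.5% of all genes. The summed level was 1.21-fold higher. HoxD, at 1.56-fold, and HoxC, at 1.30-fold, were the clusters furthest apart, and HoxA, at 1.12-fold, the nearest.

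Among these 13 genes Hoxb7 had the highest ratio, from 8.26 to 11.8 UPM (log2 0.52, 0.26 to 0.78), followed by Hoxb2 (0.50, 0.30 to 0.71), Hoxc8 (0.47, 0.31 to 0.63) and Hoxc4 (0.46, 0.30 to 0.62). Hoxb4 (-0.09, -0.23 to 0.04) and Hoxa5 (-0.06, -0.27 to 0.15) were the 2 whose intervals held no difference. Hoxa3 (0.21, 0.031 to 0.40) turned to -0.040 with the libraries clustered separately, which left 987 transgenic progenitors. Sex, the mix of progenitor clusters and the exocrine transcripts differed along with genotype. The 4 enzyme genes Clps, Ctrb1, Cela3b and Pnlip summed to 99.7 and 22.4 UPM in progenitors, and the part of each in the Hox difference was not tested. With equal weight for each progenitor cluster in both libraries, the median log2 ratio was 0.24.

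In endothelial cells the counts were small. Of the 14 genes on, 8 were higher by 1.5-fold or more in the transgenic library and 2 lower. Of all genes, 16.6% were higher and 17.9% lower (34.4% either way). The median log2 ratio was 0.63, against -0.024 over all genes read. Intervals lay above no difference for 3 genes, Hoxa3 (log2 1.27, 0.51 to 2.06), Hoxb8 (1.63, 0.22 to 3.18) and Hoxb6 (0.82, 0.13 to 1.50), and below it for 1, Hoxd8 (-0.80, -1.62 to -0.041), against 11.6% and 12.3% of all genes. The 2 blood endothelial sub-clusters had different shares in the 2 libraries, as given above. Within the sub-cluster led by Cldn5, the Hoxa3 level was 24.8 (11.9 to 45.6) and 61.6 UPM (41.9 to 87.4), while Hoxd8 stood at 29.8 UPM in both. Hoxb6 stood at 19.8 (8.57 to 39.1) and 45.7 UPM (29.0 to 68.6) there, and at 48.9 and 70.1 UPM in the sub-cluster led by Plvap. Lymphatic cells, 6 in each library, held 1 of its 36 UMIs in WT and 11 of its 41 in the other library. Whether the Hoxb6 interval stays above no difference without lymphatic cells was not tested.

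**Figure D5:**
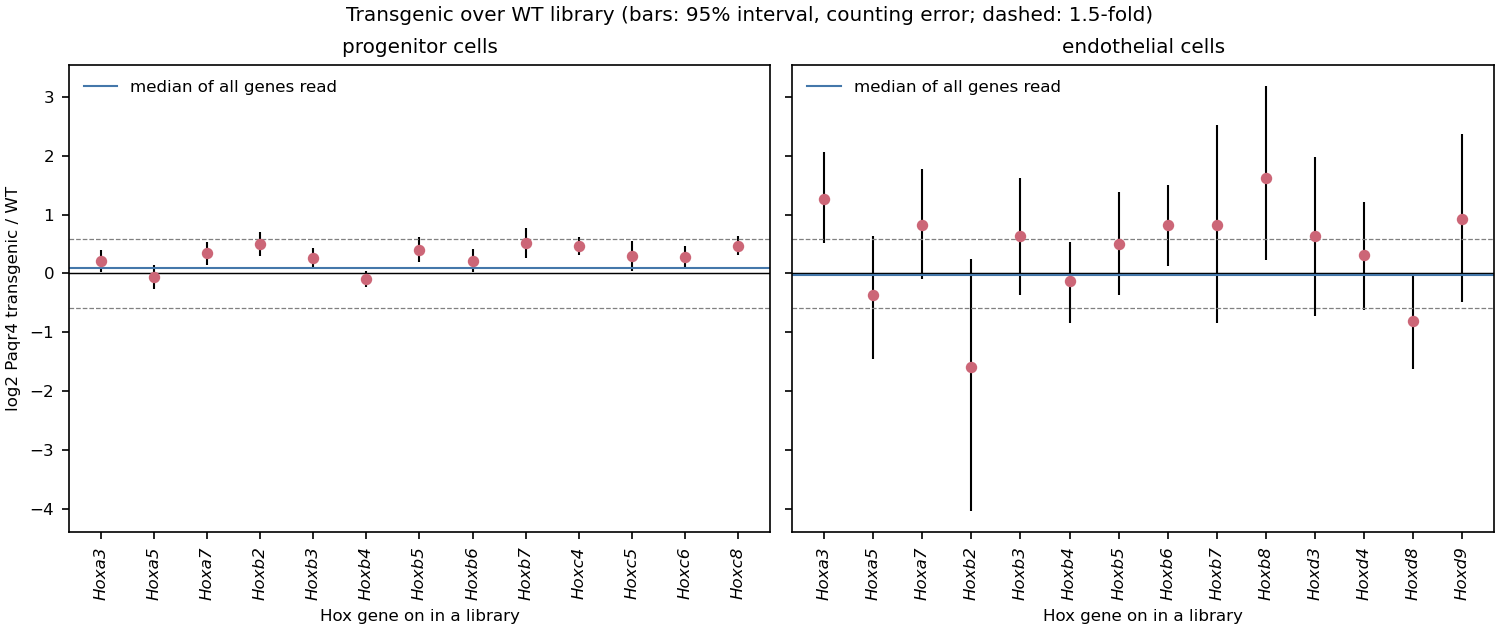
Log2 ratio of the transgenic to the WT library for Hox genes on in a library, in progenitors (13 genes) and endothelial cells (14 genes), with 95% counting intervals; dashed lines mark 1.5-fold and the blue line the median of all genes read. Progenitor ratios lie between -0.09 and 0.52, inside the dashed lines, and endothelial ratios spread further with wide intervals.

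RNAs transcribed from within the Hox clusters were mostly scarce in progenitors. Of 10 listed, Hotairm1, a non-coding RNA of the HoxA cluster, was the only RNA on in progenitors, at 17.4 and 19.4 UPM, and stood at 47.1 and 66.7 UPM in endothelial cells. Against endothelial cells 4 of the 10 could be read. All 4, Hotairm1, Hoxaas3, Hoxb3os and Hoxd3os1, were at least 2-fold higher in endothelial cells in both libraries, as were 17.6% of all genes. Hoxd3os1, antisense to Hoxd3, Hoxd4 and Hoxd8, stood at 18.6 and 12.1 UPM in endothelial cells against 1.40 and 2.05 UPM. Hottip and Haglr had 0 UMIs in progenitors and Hotair had 1. Reads of a gene and its antisense partner were told apart only as far as the deposited counts did so.

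Hox proteins bind DNA together with the TALE homeodomain proteins of the PBX, MEIS and PKNOX families. Of 9 such genes, 8 were on in progenitors, beside 26.2% and 26.6% of all symbols, with Meis2 at 439.9 and 561 UPM and Meis1 at 285 and 328 UPM, both far above the Hox genes. Meis1, Meis3 and Pknox2 were among those at least 2-fold higher in progenitors than in endothelial cells in both libraries, a call made for 4 of the 8 and for 13.2% of all genes, and Pbx3 was higher in endothelial cells (178 and 165 UPM against 35.2 and 45.8 UPM), 1 of the 8 beside 17.6% of all genes. Meis1 stood at 24.5 and 24.3 UPM in endothelial cells. Between libraries 0 of the 8 passed 1.5-fold, beside 4.47% of all genes.

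Retinoic acid, a vitamin A product, switches on the Hox genes of low number in the embryo. In a list of 21 genes of its making, breakdown and sensing and of the Cdx factors, 12 were on in progenitors (26.2% and 26.6% of all symbols were). Of these, 9 were higher and 3 lower in the transgenic library, with a median log2 ratio of 0.20. Of all 8748 genes read in progenitors, 5851 were higher and 2897 lower, with a median of 0.09. By 1.5-fold or more, 2 were higher and 0 lower, beside 2.72% and 1.75% of all genes. Aldh1a2, an enzyme that makes retinoic acid, had 60.9 and 136 UPM (log2 1.16, 1.07 to 1.25), with 0 UMIs in endothelial cells. Dhrs3, which lowers its supply, stood at 47.3 and 77.5 UPM (log2 0.71). Cyp26b1, which breaks it down, stood at 36.7 and 53.9 UPM (log2 0.56) and was higher in endothelial cells, at 95.2 and 267 UPM. Rarb, a receptor that retinoic acid induces, stood at 28.6 and 40.8 UPM (log2 0.52).

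For the lists that follow, the shares over all genes were 26.2% and 26.6% on and 4.47% past 1.5-fold between libraries. Polycomb and trithorax genes, 17 of 21 on, had 0 past 1.5-fold and a median log2 ratio of -0.07. Of 41 other position genes of limb, trunk and face, 6 were on in progenitors. Prrx1, a gene of limb and trunk mesenchyme, stood at 227 and 204 UPM and Nr2f2 at 93.9 and 109 UPM. Meox1 and Meox2 were the 2 past 1.5-fold between libraries (log2 1.81 and 0.81), and both were higher in endothelial cells. Irx3 separated the classes, at 0.16 and 0.19 UPM in progenitors and 47.1 and 48.5 UPM in endothelial cells.

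The subcutaneous label was set beside genes known to differ between depots, a list added after the data were seen. As background, Tbx15, Shox2, En1, Hoxc9 and Hoxa10 are known from subcutaneous fat and Wt1, Tcf21, Hoxa5 and Hoxc8 from visceral fat. In progenitors Tbx15 stood at 1.09 and 2.20 UPM, Shox2 at 0.19 and 0.15 UPM, and En1 had 2 and 1 UMIs. Wt1 stood at 498 and 380.4 UPM and Tcf21 at 133 and 117 UPM. Among the Hox genes, Hoxc8 and Hoxa5 were on and Hoxc9 and Hoxa10 were not. Cluster 9, with pancreatic exocrine enzyme genes, held 25 WT and 5 transgenic cells. Which depot the cells came from was not tested.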

How the data were processed

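The deposited files hold raw UMI counts per gene and barcode, made by the authors with Cell Ranger 7.0.0 on mm10, per the submitters' processing notes; the deposited gene symbols and barcodes have no unit. No label says whether intronic reads were counted. Total counts were 44145257 (WT) and 43084906 (transgenic). Cells had at least 1000 UMIs and 500 genes and at most 10% mitochondrial UMIs, and Scrublet called 1 and 4 doublets, which were removed. Counts were scaled to 10000 a cell, log-transformed and clustered with scanpy 1.11.5 (2000 variable genes, none of them Hox, 30 components, 15 neighbours, Leiden resolution 0.5). Classes were named from marker lists. Counts were then summed per class and library. Intervals are exact Poisson (levels), Clopper-Pearson (shares) and conditional binomial (ratios). They were run on independent counts simulated from the models they assume. That checks the code and cannot show whether they hold where UMIs of 1 cell go together. With 1 library per genotype there was no test. The genes and lists were chosen with earlier results of these data known, and values are given in full for genes at 10 UPM or more. Alternatives were other cell calling, clustering, depth, free RNA, thresholds and weights. Some genes are not reported here.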

Additional observations from a re-analysis of the deposited data

Results flagged for a closer look

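Hoxd8 differed between the libraries in opposite directions in the 2 cell types: its log2 ratio of transgenic to WT was 0.55 (0.21 to 0.89) in progenitors, from 120 and 180 UMIs, and -0.80 (-1.62 to -0.04) in endothelial cells, from 54 and 20 UMIs. The difference between these ratios was not tested, since each genotype had 1 library. Hoxd8 stood at 67.0 UPM (47.1 to 92.3) in the 59 WT endothelial cells led by Plvap and at 30.0 UPM (6.19 to 87.7), from 3 UMIs, in the 13 transgenic ones.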

How the results depend on the processing

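Of 138 recomputed summary values, 127 stayed within 1.5 times the reported count or within the reported interval. At a threshold of 20 UPM the genes on were 3 (WT) and 6 (transgenic) in progenitors and 7 in WT endothelial cells, and the genes apart between progenitor clusters were 3, against 1 when 2-fold was asked. Thinned to 5000 UMIs, 1 of the genes on in progenitors, Hoxb7, passed 1.5-fold between libraries (log2 0.62). Progenitors with a UMI of groups 9 to 13 then made up 4.08% and 5.48% in place of 11.3% and 12.1%. The summed Hox level was then 253 and 311.5 UPM. With each library clustered alone, 987 transgenic progenitors were left, since a cluster led by Igha and Igkc stayed without a name, and the summed level there was 282 UPM; the ratio of Hoxa3 between libraries turned from 0.21 to -0.040. Of 1404 levels of single genes 39 moved outside their interval, 32 of them by thinning. Removing Hox genes before scaling was chosen after seeing the data and moved none of the summary values. The number of endothelial cells limits every zero there. No paired analysis was possible because there was 1 library per genotype.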
